A study of Homo sapiens with 9 samples.

Results

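The fatty acid desaturases and elongases were examined as 10 genes, FADS1, FADS2, FADS3, SCD, ELOVL1, ELOVL2, ELOVL4, ELOVL5, ELOVL6 and ELOVL7, out of 63856 genes in the count table, and each was found by its symbol. The family was chosen by its names around FADS1 and ELOVL6, which the study had selected on their fold change between cells with activated ESX1 and both controls in these same samples. Their values in those 2 comparisons are therefore given as a description, without a p-value, and the calls in those comparisons are counted over the other 8 genes. All 10 genes were among the 18452 genes that passed the filter on low counts, with between 18 counts for ELOVL2 and 8158 counts for SCD in a library.

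TCam-2, a human line established from a testicular seminoma, a germ cell tumour, was sequenced in 3 groups of 3 libraries. The wild type (WT) had no modification. The cells with the activated ESX1 gene (ESX1) were transfected with vectors for gRNAs directed to ESX1, a homeobox gene of the X chromosome, and with the dCas9-VPR activator, which is switched on by doxycycline. The negative control (NC) received the same gRNA vector with nonspecific gRNAs, and the study's methods do not state separately whether it also received the activator. The transfected cells were selected with puromycin and doxycycline. The comparison with NC is thus the one matched for the gRNA vector and the selection, and the comparison of NC with WT gives what went with these steps. Only part of the cells of both transfected groups were GFP-positive after selection, and the RNA came from the whole culture, so that a change in fewer cells and a smaller change in all cells cannot be told apart. The study's methods call the libraries of a group biological replicates, and the p-values set group differences against the spread between these libraries. All are cultures of the same line, so the p-values do not reach beyond it.

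Desaturases place double bonds into fatty acids, and elongases carry out the rate-limiting condensation that lengthens them by a pair of carbons. SCD makes oleate from stearate. FADS2 and FADS1 act in turn on essential fatty acids, with ELOVL5 and ELOVL2 between and after them, to build arachidonate and the long omega-3 acids, and FADS3 introduces a double bond into sphingoid bases. ELOVL6 turns palmitate into stearate, ELOVL1 and ELOVL7 make very long saturated chains, and ELOVL4 makes the longest chains of all. Many of these genes are known targets of the sterol-regulated factors SREBP-1 and SREBP-2. In the testis, long polyunsaturated acids are enriched in the membranes of germ cells.

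FADS1, FADS2 and FADS3 lie side by side on chromosome 11, and the listed spans of FADS1 and FADS2 overlap in opposite directions. In the count table (GRCh38), FADS1 (ENSG00000149485.18) spans chr11:61799625-61829318 on the minus strand and FADS2 (ENSG00000134824.13) spans chr11:61792980-61867354 on the plus strand. They share 490 exon bases, which is 4.79% of those of FADS1 and 4.44% of those of FADS2. The reads were counted without using the strand, so reads from the shared bases cannot be assigned to 1 of the genes. FADS3 spans chr11:61873519-61892051, SCD spans chr10:100347124-100364834, ELOVL6 spans chr4:110045846-110199199, and 0 of their exon bases are shared with another listed gene. ELOVL1 (chr1:43363397-43368074) shares 2.71% of its exon bases with the microRNA gene MIR6734. ELOVL2 (chr6:10980759-11044314), ELOVL5 (chr6:53267398-53349179), ELOVL4 (chr6:79914812-79947580) and ELOVL7 (chr5:60751791-60844389) share none.

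The bases before the starts of 4 of the genes are shown because FADS1 and ELOVL6 had the largest differences among the 10 genes and because FADS2 and SCD followed each other across the libraries. The sequences are those of RefSeq on GRCh38.p14, 250 bases upstream of the annotated start in the direction of transcription. FADS1 is given from chr11:61817004-61817253 on the minus strand, FADS2 from chr11:61816154-61816403 on the plus strand, SCD from chr10:100346983-100347232 on the plus strand and ELOVL6 from chr4:110198616-110198865 on the minus strand. The count table's annotation lists further transcripts, and 194 of the 250 bases of FADS1, 148 of FADS2, 109 of SCD and 85 of ELOVL6 lie in exons that it gives for the same gene. Capitals mark GC boxes (GGGCGG) and CCAAT boxes (CCAAT), on either strand.
FADS1: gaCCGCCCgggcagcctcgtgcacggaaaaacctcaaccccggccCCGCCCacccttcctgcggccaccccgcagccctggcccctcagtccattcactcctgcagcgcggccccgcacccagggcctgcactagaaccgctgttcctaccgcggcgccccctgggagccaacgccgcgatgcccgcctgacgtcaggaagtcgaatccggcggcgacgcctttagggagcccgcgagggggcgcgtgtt
FADS2: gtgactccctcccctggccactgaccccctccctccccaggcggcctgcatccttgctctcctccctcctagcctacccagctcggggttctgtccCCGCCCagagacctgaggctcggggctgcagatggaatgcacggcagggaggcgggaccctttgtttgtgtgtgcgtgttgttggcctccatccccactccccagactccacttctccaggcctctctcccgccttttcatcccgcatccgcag
SCD: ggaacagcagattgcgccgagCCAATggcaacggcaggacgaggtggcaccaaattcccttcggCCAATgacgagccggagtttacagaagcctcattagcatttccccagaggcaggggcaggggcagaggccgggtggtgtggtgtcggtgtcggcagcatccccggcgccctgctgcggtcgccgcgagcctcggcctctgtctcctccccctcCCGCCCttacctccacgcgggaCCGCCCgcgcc
ELOVL6: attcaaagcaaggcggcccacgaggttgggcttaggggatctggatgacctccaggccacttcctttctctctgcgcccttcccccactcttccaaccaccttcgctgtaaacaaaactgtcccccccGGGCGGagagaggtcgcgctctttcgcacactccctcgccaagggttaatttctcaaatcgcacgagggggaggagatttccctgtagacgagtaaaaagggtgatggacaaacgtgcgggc
The windows used here hold a further FADS2 start at 61816203, beside that of the printed sequence. These 2 starts lie 800 and 599 bases from that of FADS1 at 61817003, inside the region that FADS1 transcripts cover. Any other start of FADS2, which spans a longer region, was not searched. Over windows of 300 bases (250 before and 50 after a start), all 10 genes matched an entry, with 11 windows in total. A GC box was found in 9 of the 11 windows and in 45.0% of 35116 windows of all genes, and a CCAAT box in 6 of the 11 windows and in 34.6% of all windows. The FADS1 window held GC boxes that begin 248 and 205 bases before its start, and that of SCD held CCAAT boxes 229 and 186 bases before its start. An E-box (CACGTG) was found in 2 of the 11 windows and in 7.26% of all windows. The sterol regulatory element TCACNCCAC, searched on both strands, was in 0 of the 11 windows and in 1.13% of all windows, and the homeodomain core TAATTA was in 0 of the 11 and in 4.84% of all. These matches describe letters in the windows and not bound sites.

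The libraries held between 5212804 counts (ESX1 replicate 3) and 10644408 counts (WT replicate 3). ESX1 itself had 48.0 ± 14.4 CPM (SD, n = 3) in the ESX1 group, 3.33 ± 0.385 in NC and 3.61 ± 0.474 in WT, where CPM, the unit of level used here, relates counts to library sizes scaled by edgeR. The mitochondrial share of counts was between 19.2% and 19.9% in ESX1, between 14.5% and 15.3% in NC and between 17.0% and 18.3% in WT. The 10 seminoma and germ cell markers had a summed level of 3756 to 4561 CPM in WT, 2886 to 3078 in NC and 1624 to 1953 in ESX1. POU5F1, NANOG, TFAP2C and SOX17 were all present, while DPPA3 had at most 1.02 CPM as a group mean. The 3 leukocyte markers summed to at most 0.204 CPM and the 5 fibroblast markers to between 3.50 and 32.1 CPM in any library. Of the fibroblast markers, COL1A1 had 3.64 ± 1.79 CPM in WT, 17.0 ± 2.60 in NC and 17.7 ± 10.5 in ESX1. The embryonal carcinoma markers, mostly DNMT3B, summed to between 55.1 and 83.7 CPM. Sertoli cell markers summed to between 9.62 and 23.8 CPM and Leydig cell markers to between 1.46 and 6.49 CPM. The mitochondrial share and the summed seminoma marker level moved with the groups, and their part in the differences below was not tested. The single markers did not all move alike. SOX17 had 227 ± 32.0 CPM in WT, 251 ± 4.64 in NC and 245 ± 49.0 in ESX1 and did not pass in any comparison. KIT had 78.0 ± 27.4 CPM in WT, 20.1 ± 1.47 in NC and 12.5 ± 0.456 in ESX1.

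FADS1, the desaturase of the last step before arachidonate, was higher in every ESX1 library than in every control library. Its level was 145, 155 and 115 CPM in the ESX1 replicates 1, 2 and 3. It was 27.3, 27.4 and 26.8 CPM in NC and 30.1, 49.7 and 58.0 CPM in WT. The lowest ESX1 library was thus above the highest WT library, and the NC libraries lay close together while the WT libraries were spread. The mean was 138.5 ± 21.0 CPM in ESX1, 27.2 ± 0.349 in NC and 45.9 ± 14.3 in WT (SD, n = 3 each). The log2 fold change was 2.35 (SE 0.187, 5.11-fold) against NC and 1.596 (SE 0.181, 3.02-fold) against WT. Leaving out each library in turn gave log2 fold changes between 2.26 and 2.48 against NC and between 1.36 and 1.81 against WT.

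The direction of FADS1 between the controls was the opposite. FADS1 was lower in NC than in WT by 0.76 on the log2 scale (SE 0.186, adjusted p = 0.00961, edgeR), and 3 of 3 NC libraries lay below all WT libraries, although the NC library with 27.4 CPM and the WT library with 30.1 CPM were near each other. Without WT replicate 3, the library with the highest level, the difference was -0.55 with an adjusted p of 0.0609. Over all 19 alternatives the adjusted p ranged from 2.0e-05 to 0.0609.

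**Figure D1:**
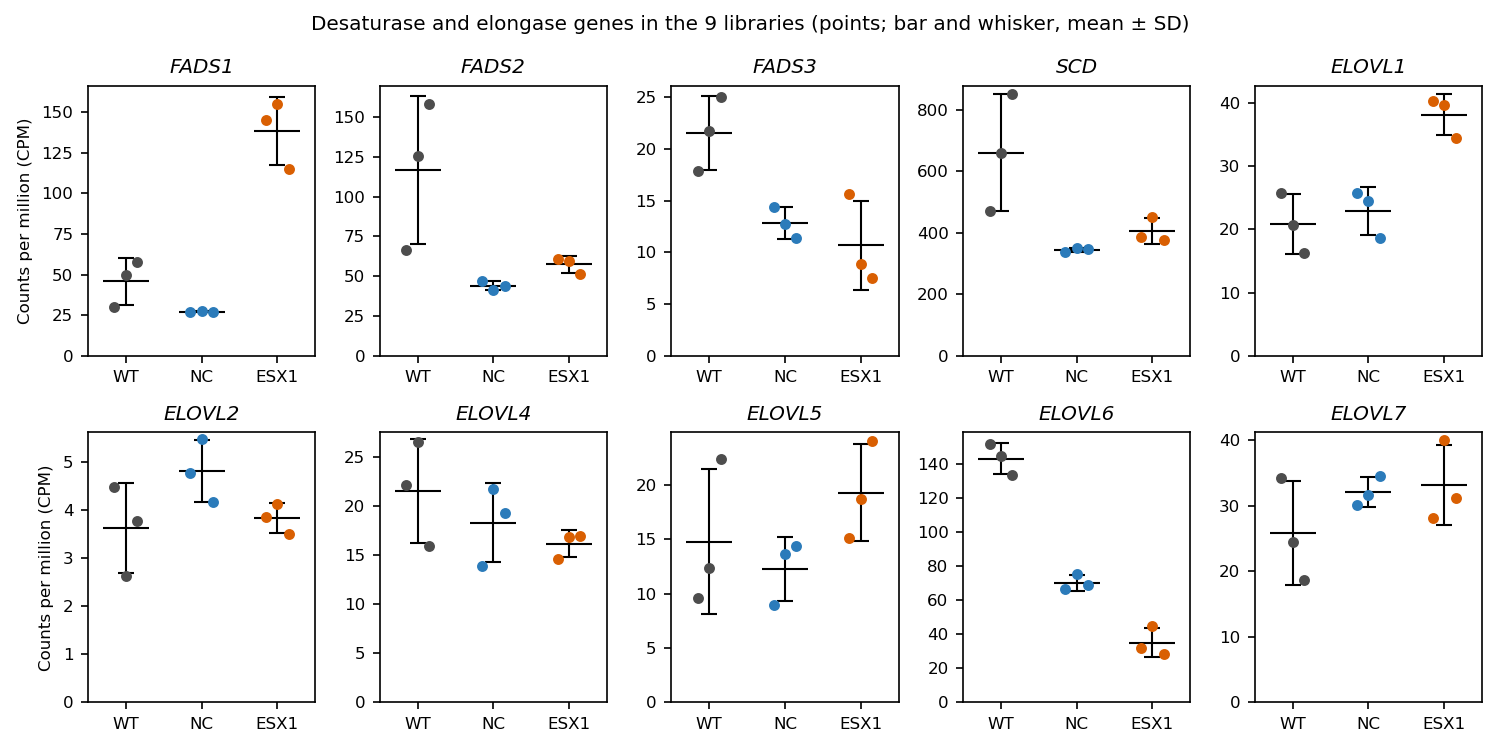
Level in CPM (y axis, linear from 0) of the 10 desaturase and elongase genes in the 3 libraries each of WT, NC and ESX1 (points), with the mean and SD of each group (bar and whiskers). FADS1 lies between 115 and 155 CPM in ESX1 and at most at 58.0 CPM in the controls, and ELOVL6 takes 3 separate levels that do not overlap.

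FADS2 carries out the initial desaturation of essential fatty acids. It moved opposite to FADS1 in ESX1 against WT, and in the same direction in ESX1 against NC and in NC against WT. Its level was 61.1, 59.7 and 51.5 CPM in ESX1, 47.2, 41.3 and 44.2 CPM in NC and 66.7, 126 and 158 CPM in WT. Every library of both transfected groups was below every WT library, and WT replicate 1 was closest to them. FADS2 fell in NC against WT by 1.40 on the log2 scale (SE 0.211, adjusted p = 0.00029) and in ESX1 against WT by 1.02 (SE 0.210, adjusted p = 0.00149, edgeR). Against NC the ESX1 libraries were all higher, with a log2 fold change of 0.38 (95% interval -0.07 to 0.83), which did not pass the test (adjusted p = 0.412).

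Because FADS1 and FADS2 were counted in the same libraries, their ratio does not depend on the scaling between libraries. Levels per kilobase use all exon bases listed for a gene over its transcripts. On this scale, the FADS1 to FADS2 ratio of levels was 2.56, 2.80 and 2.40 in ESX1, 0.623, 0.717 and 0.653 in NC and 0.487, 0.426 and 0.395 in WT. The 3 groups did not overlap in this ratio. FADS1 supplied 66.2% ± 2.59 of the summed FADS level per kilobase in ESX1, 30.5% ± 1.49 in NC and 24.4% ± 0.681 in WT (SD, n = 3 each). The summed level itself was 20.4 ± 2.89 CPM per kilobase in ESX1, 8.71 ± 0.456 in NC and 18.5 ± 6.17 in WT, so that the sums of ESX1 and WT overlapped while their make-up did not. These ratios contain the FADS1 values that led to its choice and carry no test.

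FADS3, the desaturase of sphingoid bases, was lower in both transfected groups than in WT. Its level was 15.6, 8.85 and 7.57 CPM in ESX1, 14.4, 12.8 and 11.4 CPM in NC and 17.9, 21.7 and 25.1 CPM in WT. The ESX1 libraries spread on both sides of the NC libraries, and ESX1 replicate 3, the smallest library, held 41 counts of this gene. FADS3 fell by 0.99 in ESX1 against WT (SE 0.237, adjusted p = 0.00464) and by 0.75 in NC against WT (SE 0.232, adjusted p = 0.0346) on the log2 scale. The latter is no longer past the threshold when any of NC replicates 1, 2 and 3 or WT replicates 2 and 3 is left out, where the adjusted p lay between 0.0608 and 0.143. ESX1 and NC differed by -0.24 (95% interval -0.75 to 0.26, adjusted p = 0.699).

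SCD, the enzyme of oleate synthesis, was the gene of this family with the highest level per kilobase in all 3 groups. Its level was 388, 453 and 378 CPM in ESX1, 337, 349 and 346 CPM in NC and 473, 659 and 852 CPM in WT. All libraries of the transfected groups were below all WT libraries, and WT replicates 1 and 3 were far apart. SCD fell by 0.94 in NC against WT (SE 0.155, adjusted p = 0.000567) and by 0.70 in ESX1 against WT (SE 0.155, adjusted p = 0.00256) on the log2 scale. The ESX1 libraries were all above the NC libraries, but the difference of 0.24 (95% interval -0.09 to 0.57) did not pass the test (adjusted p = 0.493). Per kilobase, SCD made up 56.2% ± 0.854 of the summed level of the 10 genes in ESX1, 58.8% ± 0.891 in NC and 65.1% ± 6.0 in WT.

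FADS2 and SCD followed each other over the 9 libraries, with a Pearson r of 0.98 of their log2 CPM. FADS1 did not share this, with r of 0.17 to FADS2 and 0.14 to SCD. The 9 points share their group structure and their library depths, and these correlations are a description.

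**Figure D2:**
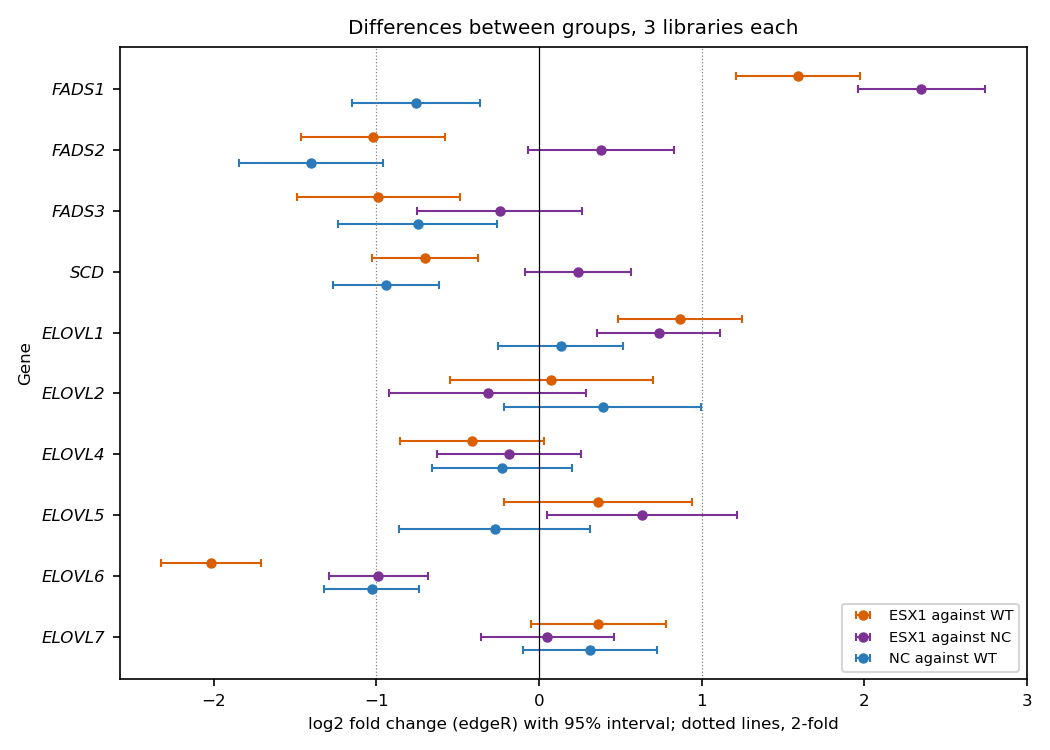
log2 fold change (x axis, edgeR) with its 95% interval for each of the 10 genes (y axis) in ESX1 against WT, ESX1 against NC and NC against WT, 3 libraries per group. FADS1 lies to the right in both comparisons of ESX1 (2.35 and 1.596) and to the left in NC against WT (-0.76), ELOVL6 lies to the left in all 3, and the intervals of ELOVL2, ELOVL4 and ELOVL7 span 0 in all 3.

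Among the elongases, ELOVL6, which converts palmitate to stearate, had a separate level in each group. It was 32.0, 44.7 and 28.4 CPM in ESX1, 66.3, 75.0 and 68.8 CPM in NC and 151, 144 and 133 CPM in WT. No library of 1 group reached the range of another. ELOVL6 fell in NC against WT by 1.03 on the log2 scale (SE 0.139, adjusted p = 0.000118, edgeR), and 3 of 3 NC libraries were lower. It had not been picked on this comparison, but the same NC and WT libraries entered the comparisons on which it was picked. The p-value is therefore not independent of that choice. ESX1 was lower again, with a log2 fold change of -0.99 (SE 0.144) against NC and -2.02 (SE 0.146) against WT. The value against NC, 0.504-fold, is just short of a 2-fold difference, and it lay between -1.20 and -0.86 when each library was left out, with -1.20 without ESX1 replicate 2.

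The share of ELOVL6 in the summed elongase level followed the same order. Per kilobase, ELOVL6 supplied 43.2% ± 1.40 of the summed level of the 6 elongases in WT, 26.5% ± 0.208 in NC and 12.4% ± 2.03 in ESX1 (SD, n = 3 each). The sum of the 6 elongases was 45.5 ± 4.29 CPM per kilobase in WT, 36.2 ± 2.59 in NC and 38.6 ± 3.14 in ESX1.

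**Figure D3:**
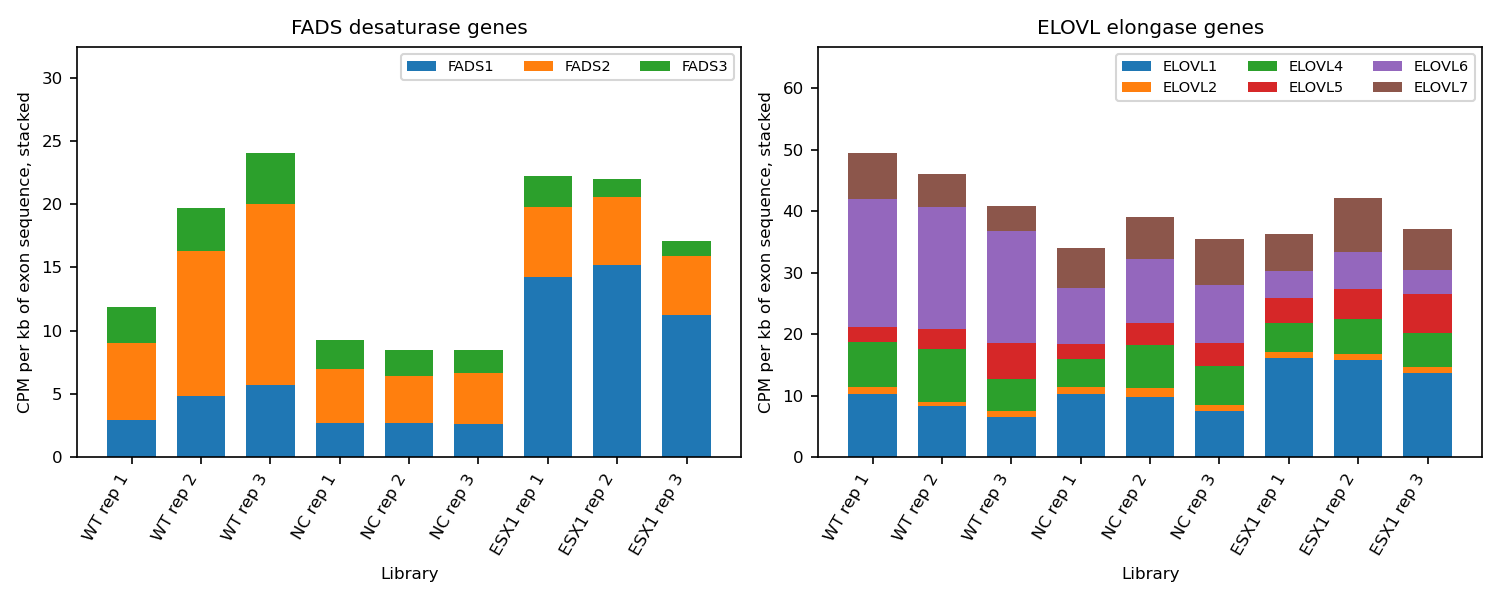
Levels of the FADS genes (left) and of the ELOVL genes (right) in CPM per kilobase of exon sequence (y axis), stacked for each of the 9 libraries (x axis). FADS1 fills 66.2% of the FADS bar on average in ESX1 and 24.4% in WT, and ELOVL6 fills 12.4% of the ELOVL bar in ESX1 and 43.2% in WT.

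ELOVL1, an elongase of very long saturated chains, was higher in the ESX1 libraries than in both controls. Its level was 40.4, 39.6 and 34.4 CPM in ESX1, 25.7, 24.5 and 18.6 CPM in NC and 25.8, 20.7 and 16.3 CPM in WT. All ESX1 libraries were above all 6 control libraries, and the controls overlapped each other. ELOVL1 rose against WT by a log2 fold change of 0.87 (SE 0.181, adjusted p = 0.00165) and by 0.74 against NC (SE 0.179, adjusted p = 0.0244, edgeR), a 1.67-fold difference. The call against NC passed under 15 of 19 alternatives and was lost without ESX1 replicate 1, ESX1 replicate 2, NC replicate 2 or NC replicate 3, with values of 0.69, 0.71, 0.79 and 0.62. Over all 19 alternatives its adjusted p ranged from 0.00168 to 0.153. Per kilobase, ELOVL1 ranked at the second place of the 10 genes in ESX1, next to FADS1 with an overlapping range, at the third in NC and at the fourth in WT.

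The other 4 elongases did not pass the test in any of the 3 comparisons. ELOVL5, which elongates the polyunsaturated acids between the FADS2 and FADS1 steps, had 15.1, 18.7 and 24.0 CPM in ESX1, 8.91, 13.6 and 14.4 CPM in NC and 9.61, 12.4 and 22.4 CPM in WT. All ESX1 libraries were above all NC libraries, with a log2 difference of 0.63 (95% interval 0.05 to 1.22) and an adjusted p of 0.259. ESX1 and WT overlapped, and WT replicate 3 stood apart from the other two. Without WT replicate 3, the difference from WT was 0.80 with an adjusted p of 0.0322, against 0.36 with it (adjusted p = 0.350), and the range over the alternatives was 0.0322 to 0.778.

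ELOVL2, which extends the longest omega-3 acids, had the lowest level per kilobase in all 3 groups and between 2.62 and 5.47 CPM in any library. Its log2 difference from NC was -0.32 (95% interval -0.92 to 0.29), with all ESX1 libraries lower, and its difference from WT was 0.08 (95% interval -0.55 to 0.70). ELOVL4 ranged from 14.6 to 17.0 CPM in ESX1, from 13.9 to 21.8 CPM in NC and from 16.0 to 26.5 CPM in WT. Its log2 difference was -0.18 (95% interval -0.62 to 0.26) from NC and -0.41 (95% interval -0.85 to 0.03) from WT. ELOVL7 ranged from 28.2 to 40.0 CPM in ESX1, from 30.1 to 34.5 CPM in NC and from 18.6 to 34.3 CPM in WT, and differed by 0.05 (95% interval -0.36 to 0.46) from NC and by 0.36 (95% interval -0.05 to 0.78) from WT. A p that misses the threshold does not show that the groups were alike. Calls appeared when 1 library was left out, that of ELOVL4 against WT without WT replicate 3 (-0.59, adjusted p = 0.0489) and that of ELOVL7 without WT replicate 1 (0.63 against WT, adjusted p = 0.0191, and 0.58 for NC against WT, adjusted p = 0.0400). Over the alternatives the adjusted p of these comparisons ranged from 0.0489 to 0.489 for ELOVL4, from 0.0191 to 0.564 for ELOVL7 in ESX1 and from 0.0400 to 0.738 for ELOVL7 in NC.

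The order of levels per kilobase differed between the groups. The length used covers all exons listed for a gene, with 10230 bases for FADS1, 11026 for FADS2 and 5362 for SCD. A gene that mostly makes a shorter transcript is given too low a level. Ranks and shares between genes therefore depend on this choice of length. SCD was at the top in each group, with 123 ± 35.4 CPM per kilobase in WT, 64.2 ± 1.21 in NC and 75.8 ± 7.64 in ESX1. ELOVL6 stood directly below SCD in WT (19.6 ± 1.23) and in NC (9.60 ± 0.614), where it overlapped ELOVL1, and at the eighth place in ESX1 (4.80 ± 1.17), where it overlapped ELOVL5. FADS1 was at the seventh place in WT (4.49 ± 1.40), at the eighth in NC (2.65 ± 0.0341) and at the third in ESX1 (13.5 ± 2.06). FADS2 was at the third place in WT (10.6 ± 4.21) and at the sixth in NC (4.01 ± 0.267) and in ESX1 (5.21 ± 0.469). FADS3 and ELOVL2 held the last places in all groups without overlap of their ranges. From the third to the ninth place in WT, neighbouring genes overlapped, so that their order is not resolved.

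A gene was called at an adjusted p below 0.05 and at least a 2-fold change, after the fold threshold of the study. Against WT, 0 of the other 8 genes were called higher and 1 lower (FADS2) in ESX1, where 6.78% and 4.77% of all tested genes were called higher and lower. FADS2, at -1.02, lay just inside the 2-fold limit and FADS3, at -0.99, just outside it. With the fold limit dropped and the adjusted p kept, 1 of the 8 was higher (ELOVL1) and 3 lower (FADS2, FADS3 and SCD), beside 12.9% and 15.8% of all tested genes. The count of 1 became 0 without ESX1 replicate 3, NC replicate 2, NC replicate 3, WT replicate 2 or WT replicate 3, became 2 without ESX1 replicate 1 and 3 without WT replicate 1.

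Against NC, 0 of the 8 genes were called in ESX1, where 1.08% of all tested genes were called higher and 0.699% lower. Without a minimum fold, 1 was higher (ELOVL1) and 0 were lower, beside 1.88% and 2.37% of all tested genes, and the other 7 did not pass. In NC against WT, 2 of 10 genes were called lower (FADS2 and ELOVL6) and 0 higher, beside 2.15% and 3.12% of all tested genes. Without a minimum fold, 5 of 10 were lower (FADS1, FADS2, FADS3, SCD and ELOVL6) and 0 higher, beside 10.3% and 6.82% of all tested genes. The count of 2 became 1 without NC replicate 1. The comparisons share their WT or NC libraries, so that the values of a gene in them are not independent. The counts of NC against WT include FADS1 and ELOVL6, and these WT and NC libraries also entered the study's choice of both genes. The median log2 fold change of the 10 genes was -0.17 for ESX1 against WT, 0.15 for ESX1 against NC and -0.51 for NC against WT, while that of all tested genes was within 0.01 of 0 in each.

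The genes around the FADS locus were compared because FADS1 lies among them. Of the 10 tested genes within 200 kb of FADS1, FADS2 or FADS3, 0 passed the test between ESX1 and NC, where 1.88% of all tested genes were higher and 2.37% lower at an adjusted p below 0.05, so that 0 of 10 is near the background. Their log2 fold changes lay between -0.48 (RAB3IL1) and 0.62 (BEST1). Against WT, 4 rose and 2 fell, beside 12.9% and 15.8% of all tested genes. BEST1, a chloride channel gene, rose by 1.21 (SE 0.248, adjusted p = 0.00148) and FTH1, the heavy chain of the iron store ferritin, rose by 1.13 (SE 0.209, adjusted p = 0.000626). DAGLA, a diacylglycerol lipase, and MYRF, a transcription factor of myelin, rose by 0.93 and 0.87. TMEM258 and FEN1, a flap endonuclease that overlaps FADS2 by 49 exon bases, fell by 0.85 and 0.41. In NC against WT, RAB3IL1 rose by 0.87 (adjusted p = 0.0476) and TMEM258 fell by 0.98 (adjusted p = 0.00114). RPLP0P2, RP11-855O10.3 and RP11-810P12.7 did not pass in any comparison. Of the 4 tested genes within 200 kb of ELOVL6, namely LRIT3, EGF, RP11-115A14.1 and ENPEP, 0 passed in any of the 3 comparisons, with values between -0.97 and 0.52 for ESX1 against NC.

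**Figure D4:**
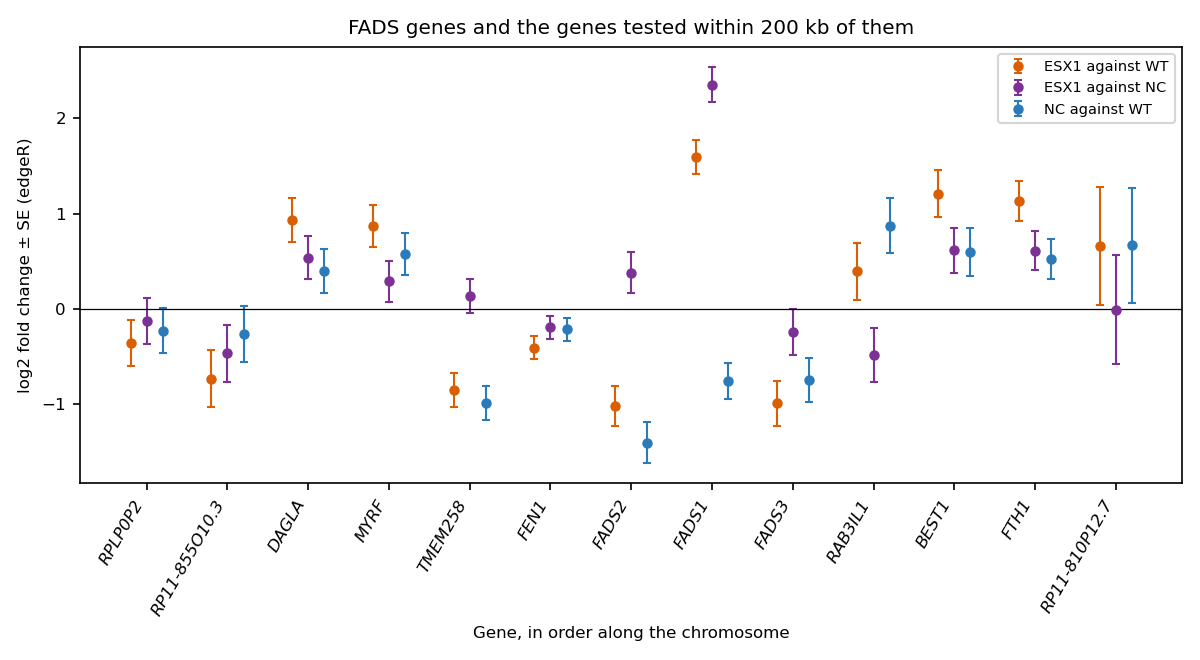
log2 fold change with its SE (y axis, edgeR) of the 3 FADS genes and the 10 tested genes within 200 kb of them, in order along the chromosome (x axis), in the 3 comparisons. For ESX1 against NC, FADS1 is at 2.35 and the 10 neighbours lie between -0.48 and 0.62.

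The genes that work beside these enzymes were taken as 10 lists with 105 genes, of which 90 were tested. The lists were written with earlier results of these data known, so their counts beside the shares of all genes are a description. In ESX1 against NC, 2 of the 90 were higher and 4 lower at an adjusted p below 0.05, beside 1.88% and 2.37% of all tested genes, and the other 84 did not pass. In ESX1 against WT the counts were 10 higher and 26 lower, beside 12.9% and 15.8% of all tested genes. In NC against WT they were 5 higher and 20 lower, beside 6.82% and 10.3%. The median log2 fold change of the 90 genes was 0.03, -0.17 and -0.13 in these comparisons. The higher counts of ESX1 against NC and against WT include GPAT3. The study had picked that gene on these contrasts in the same samples, so its passes there are no test.

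Closest to the enzymes are the other desaturases and elongases, of which 0 of 4 tested genes passed in any comparison. DEGS1, which makes ceramide from dihydroceramide, had the highest level of the list, with 105 ± 20.6 CPM in ESX1, 80.3 ± 0.394 in NC and 96.1 ± 7.11 in WT. FADS6, a member of the FADS family with an unknown substrate, was too low to be tested and is named after its values were seen. It had 10 to 27 counts in the ESX1 libraries, 1 to 5 in NC and 0 to 1 in WT. Of the 6 tested partners of the elongation cycle, which reduce and dehydrate the product of the elongases, 0 passed against NC and 2 were lower than WT in ESX1. HACD3, the dehydratase with the highest level, had 135 ± 11.1 CPM in ESX1, 127 ± 13.7 in NC and 182 ± 5.09 in WT, and it fell by 0.43 in ESX1 (adjusted p = 0.00921) and by 0.51 in NC (adjusted p = 0.00519) against WT. Of the 6 genes that supply electrons to desaturases, 0 passed against NC, while 1 was higher and 2 were lower than WT in ESX1. CYB5B, a cytochrome b5, had 82.9 ± 5.46 CPM in ESX1, 88.4 ± 4.82 in NC and 125 ± 12.5 in WT.

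Of 7 tested genes for acetyl-CoA, malonyl-CoA and palmitate, 0 passed against NC, and 1 was higher and 3 were lower than WT in ESX1, with the same counts in NC against WT. FASN, which makes palmitate, had 558 ± 204 CPM in ESX1, 656 ± 105 in NC and 759 ± 100 in WT, and it did not pass in any comparison. Of 9 tested acyl-CoA ligases, which activate fatty acids, 0 passed in ESX1 against NC or WT and 1 was lower in NC against WT. That gene was ACSL3, the ligase with the highest level, at 131 ± 9.65 CPM in NC and 177 ± 29.9 in WT, and it fell by 0.44 on the log2 scale (adjusted p = 0.0380).

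Genes of the cholesterol list are known targets of the same sterol-regulated factors as many of the 10 genes. The list, written with earlier results of these data known, fell in both transfected groups against WT. Of its 15 tested genes, 10 were lower in ESX1 and 9 in NC against WT, where 15.8% and 10.3% of all tested genes were lower, and 0 were higher, with medians of -0.78 and -0.71 on the log2 scale. In ESX1 against NC, 1 of 15 was lower and the median was 0.04. The summed level of the list was 977, 1095 and 1119 CPM in ESX1, 1123, 1075 and 1090 CPM in NC and 1372, 1978 and 2409 CPM in WT. WT replicate 1 was lowest and WT replicate 3 highest among the WT libraries, as they were for FADS1, FADS2, FADS3, SCD and ELOVL5. ELOVL1, ELOVL6 and ELOVL7 ran in the opposite order, and ELOVL2 and ELOVL4 in neither. The activity of the sterol-regulated factors was not measured, and a cause shared by these genes was not tested.

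Of 15 tested regulators of lipid synthesis, 1 passed in ESX1 against NC. It was SREBF1, which encodes the SREBP-1 factor that drives fatty acid synthesis, and it is named after its values were seen. SREBF1 had 35.4 ± 8.84 CPM in ESX1, 57.3 ± 9.43 in NC and 51.1 ± 6.25 in WT, and fell by 0.69 against NC (SE 0.173, adjusted p = 0.0282) and by 0.53 against WT (SE 0.174, adjusted p = 0.0294). INSIG1, a sterol-responsive gene that retains the SREBP escort in the endoplasmic reticulum, was the only regulator past the 2-fold limit and is likewise named after its values were seen. It had 14.0 ± 0.793 CPM in ESX1, 9.86 ± 1.73 in NC and 28.9 ± 13.0 in WT, and fell by 1.05 in ESX1 (adjusted p = 0.00843) and by 1.55 in NC (adjusted p = 0.00115) against WT. MBTPS1, a protease that releases SREBP factors and the regulator with the highest level, had 80.6 ± 4.18 CPM in ESX1, 87.4 ± 4.37 in NC and 88.7 ± 8.95 in WT and did not pass.

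Of the 15 tested enzymes that place acyl chains into glycerolipids, 2 were higher and 2 lower in ESX1 against NC, beside 1.88% and 2.37% of all tested genes. The higher count includes GPAT3, whose pass is no test. GPAT3, a glycerol phosphate acyltransferase of triglyceride synthesis, was the only gene of the lists past the 2-fold limit against both controls, and the study had picked it in the same comparisons. It had 13.8 ± 0.921 CPM in ESX1, 4.37 ± 0.471 in NC and 0.710 ± 0.283 in WT. On the log2 scale it differed by 1.66 (SE 0.247) from NC and by 4.27 (SE 0.318) from WT, with 4 to 9 counts in the WT libraries, and it rose by 2.61 in NC against WT (SE 0.338, adjusted p = 8.9e-05). GPAT4, AGPAT4 and LPCAT4 are named after their values were seen. GPAT4 fell by 0.58 (adjusted p = 0.00711) and AGPAT4 by 0.64 (adjusted p = 0.0124) against NC, and LPCAT4 rose by 0.82 (adjusted p = 0.0169). Of the 7 tested genes of peroxisomal chain shortening and the 6 tested genes of arachidonate release and use, 0 passed against NC. HSD17B4, a peroxisomal enzyme of that shortening, had 95.1 ± 10.3 CPM in ESX1, 101 ± 6.49 in NC and 146 ± 26.1 in WT, and PTGES3 had 305 ± 33.1, 294 ± 40.0 and 312 ± 11.3 CPM.

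**Figure D5:**
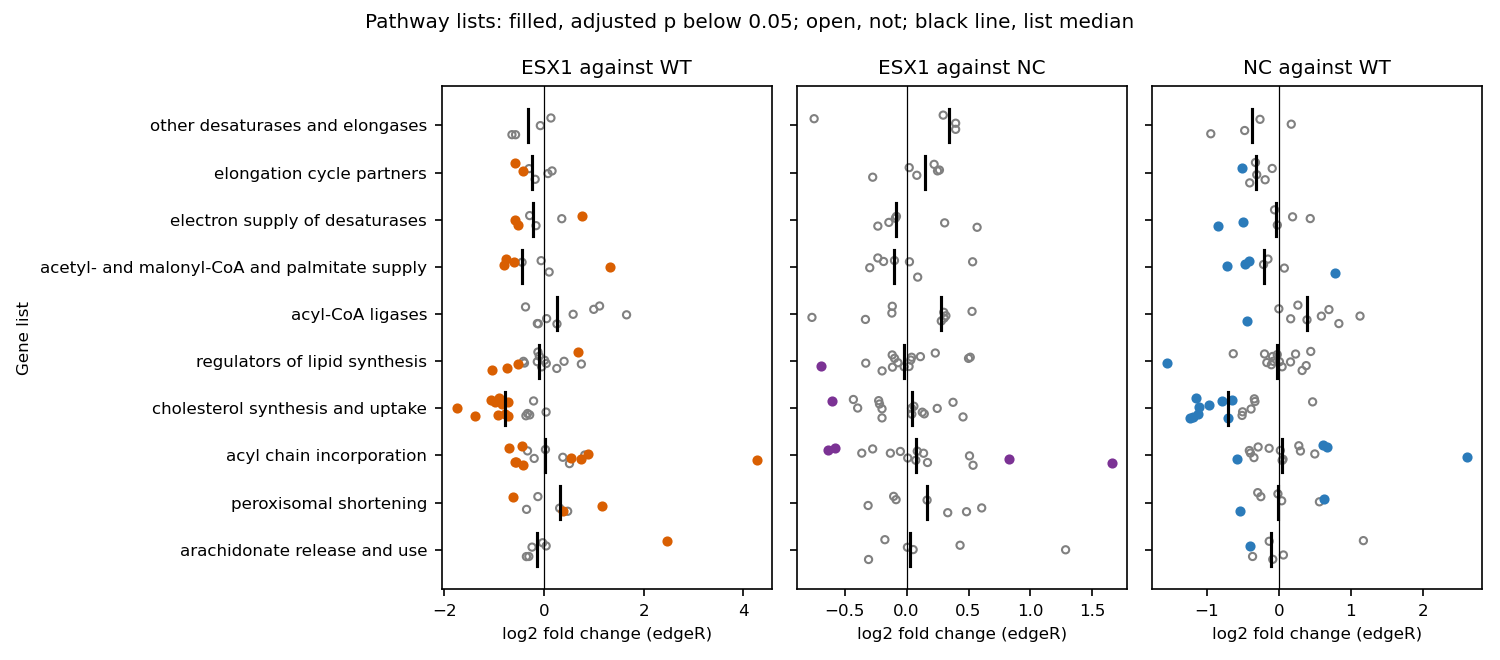
log2 fold changes (x axis, edgeR) of the 90 tested genes of the 10 lists (y axis) in the 3 comparisons, each panel with its own scale, with filled points for an adjusted p below 0.05, open points for the rest and a black line at each list's median. The cholesterol list has its median at -0.78 in ESX1 against WT, at 0.04 in ESX1 against NC and at -0.71 in NC against WT.

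The genes with the most similar patterns to FADS1 and ELOVL6 were found by Pearson r of log2 CPM over the 9 libraries among 10320 genes with a mean log2 CPM of at least 3. They are a description, since the points share their groups and depth. For FADS1 they were ATP6V1C2 (r = 0.96), TOR1AIP1 (0.96), BTBD3 (0.96), SOCS3 (0.95) and ANKRA2 (0.95). Each of these had a smaller difference than FADS1, with log2 fold changes against NC of 0.47 (TOR1AIP1) to 0.76 (ATP6V1C2). The most opposite were HNRNPA2B1 (-0.95), MTA3 (-0.95), DDX12P (-0.94), TBL1X (-0.94) and IQGAP3 (-0.94). For ELOVL6 they were LINC00294 (r = 0.997), MME (0.99), CDCA7 (0.99), DLC1 (0.99) and ANK2 (0.99). Like ELOVL6, these had separate steps between the groups, and MME, a membrane metalloendopeptidase, had log2 fold changes of -1.23 in NC against WT and -0.86 in ESX1 against NC. The most opposite to ELOVL6 were C10orf10, FTL, ZNF805, SLC3A2 and KCNG1, with r between -0.995 and -0.985. FTL, the light chain of ferritin, had log2 fold changes of 1.20 in NC against WT and 1.09 in ESX1 against NC.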

How the data were processed

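RNA of 9 TCam-2 cultures was sequenced as stranded, ribosomal RNA-depleted paired reads. The authors aligned the reads with HISAT2 2.0.5 to GRCh38 and counted them per gene. The deposited values are unnormalized counts without pooling. The table's header names featureCounts 1.5.2 and GENCODE 26 and no strand option, while the submitters' processing notes name featureCounts 1.6.5. A second table deposited by the authors holds log2 values normalized with DESeq2 by a transformation not given in the sources used here, which served an alternative only. Both tables held the same 63856 genes.

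The members and gene lists were chosen with earlier results of these data known. Groups and replicate numbers came from the sample labels. The counts were fitted with edgeR 4.0.16 (R 4.3.3). Genes were kept by filterByExpr, library sizes were scaled with TMM, 1 quasi-likelihood fit of 3 group means covered all 9 libraries, and the Benjamini-Hochberg adjustment ran over 18452 genes. CPM use the scaled library sizes, and levels between genes are per kilobase of all exon bases listed for a gene over its transcripts. The number of counts limits the precision, and intervals of 95% are those of the fit. Log2 CPM for correlations used a prior count of 2. The tests were also run on counts simulated with means and dispersions estimated from these data, which cannot show whether that model holds for the libraries.

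Named were the 10 members, the targeted gene, tested genes within 200 kb, the 5 most and 5 least correlated genes, and list genes past the 2-fold call against both controls or, in a list without any, the gene with the highest mean. Single genes of the cholesterol list are not reported here. Alternatives were limma 3.58.1 on the authors' log2 values, DESeq2 1.42.0, other scalings and filters, thinning to 5212804 counts, a replicate block and each library left out.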

Additional observations from a re-analysis of the deposited data

How the results depend on the processing

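For ESX1 against WT, ESX1 against NC and NC against WT, the genes called were 2131, 328 and 973. These counts became 5306, 784 and 3158 without a minimum fold, 1192, 200 and 563 with at least 10 counts in every library (13485 genes tested), and 937, 177 and 338 with limma on the authors' log2 values. With each library left out, ESX1 against NC gave between 207 and 432 genes, with 216 without NC replicate 2 and 207 without NC replicate 3, and NC against WT gave between 686 and 1307. The cause of these shifts was not tested. The members called were 1 of 8, 0 of 8 and 2 of 10. They became 4, 1 and 5 without a minimum fold. For ESX1 against WT the count was 0 with upper-quartile scaling, with at least 10 counts, with thinning and with limma, and between 0 and 3 with each library left out. For NC against WT it was 1 with upper-quartile scaling, with at least 10 counts and with limma, and between 1 and 2 with each library left out. FADS2 and FADS3 against WT and ELOVL6 in NC against WT lie close to the 2-fold limit.

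Of 494 tested member values under the alternatives, 474 kept their direction and their side of the threshold, 11 lost a call, 4 gained one and 5 turned. The 76 values of FADS1 and ELOVL6 in the ESX1 comparisons carry no test, and 0 of them turned. ELOVL2 in ESX1 against WT turned from 0.08 to -0.17 with thinning and lay between -0.10 (without WT replicate 2) and 0.25 with each library left out. ELOVL7 in ESX1 against NC turned from 0.05 to -0.11 without ESX1 replicate 2 and was at most 0.16 with each library left out. In NC against WT without WT replicate 3, ELOVL1 turned from 0.13 to -0.022 and ELOVL5 from -0.27 to 0.17, and with each library left out they reached 0.32 and -0.51 at the other end. The FADS3 call in NC against WT was also lost with upper-quartile scaling (adjusted p = 0.0544). That scaling moved the median of all tested genes to 0.11 in ESX1 against WT and to 0.10 in NC against WT. ELOVL6 without ESX1 replicate 2 was -2.23 against WT and -1.20 against NC.

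Deviations of libraries with the same replicate number had correlations between -0.03 and 0.19, with 0.19, 0.09 and 0.02 for ESX1 against NC. Libraries with different numbers were not compared, so these values do not decide whether the numbers pair the libraries. The authors' own names of the ESX1 libraries carry numbers that differ in part from these replicate numbers, while those of NC and WT match them. With the replicate number as a block, 2109, 358 and 1003 genes and 1, 0 and 2 members were called, and the 26 tested member values kept their direction and their side of the threshold. FADS3 had 41 counts in the smallest library, ESX1 replicate 3. Without ESX1 replicate 1, its log2 fold change was -1.38 against WT and -0.63 against NC. ELOVL2 had between 18 and 51 counts in any library.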
